A study of Homo sapiens with 12 samples.

Results

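Transcript levels of 9 genes for transcription factors of the pluripotent state were followed in 2 human testicular germ cell tumour lines exposed to I-BRD9, a compound directed at the bromodomain of the chromatin protein BRD9. The genes are POU5F1, PRDM14, SALL4, ZSCAN10, ZFP42, UTF1, VENTX, FOXD3 and TFCP2L1, and each was taken from the deposited count table by its gene name. They are 9 of the 63241 genes in the table. The table holds 12 libraries in 4 groups of 3 replicates that the labels call biological: 2102 EP cells with DMSO, 2102 EP cells with 15 µM I-BRD9, TCam-2 cells with DMSO, and TCam-2 cells with 15 µM I-BRD9, each kept for 24 h. 2102 EP is an embryonal carcinoma line and was grown in DMEM, TCam-2 is a seminoma line and was grown in RPMI, both lines are labelled WT, and DMSO is the solvent of the compound. Each tumour type is represented by a single established line, so line, tumour type and medium cannot be told apart. The labels do not say how the 3 cultures of a group were kept apart, so p-values measure only the spread between these libraries.

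POU5F1 encodes OCT4, a homeodomain protein that binds octamer DNA together with SOX2 and is required for pluripotency in the embryo and in stem cells. Around it stand other DNA-binding proteins that activate or hold back shared target genes, and several of them are also active in early germ cells. Embryonal carcinoma cells resemble pluripotent stem cells and seminoma cells resemble primordial germ cells, and OCT4 and SALL4 are used in pathology as markers of both tumours.

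Total estimated counts ran from 7290335 to 10053366 per library, and 3 counts corresponded to 0.297 to 0.409 CPM (counts scaled to a common library size, here with TMM factors). QuantSeq libraries hold 3′ transcript ends, so a count reflects transcript number and not transcript length. After a filter on low counts 15614 genes were tested. All 9 genes passed it, ZFP42 through its counts in 2102 EP alone and FOXD3 at levels of a few counts per library. The lines were checked against markers of their tumour types. With DMSO, SOX2 was at 468 ± 21.1 CPM (SD, n = 3) in 2102 EP and 17.1 ± 2.28 CPM in TCam-2, and SOX17 was at 0.0774 ± 0.0671 and 193 ± 6.66 CPM. DNMT3B, which is high in embryonal carcinoma, was at 521 ± 13.7 and 87.4 ± 4.58 CPM (SD, n = 3). The seminoma markers TFAP2C, PRDM1 and PDPN were at 145 ± 42.2, 3.69 ± 1.69 and 40.1 ± 1.38 CPM in 2102 EP and at 1208 ± 247, 32.8 ± 0.458 and 118 ± 7.04 CPM in TCam-2. These genes were picked after their values were seen. Of all 10 tested germ cell and seminoma markers, 7 were higher in TCam-2 with DMSO and 3 were lower: LHX8 was at 3.41 ± 0.678 CPM in 2102 EP and 0.0393 ± 0.0681 CPM in TCam-2, DND1 at 20.1 ± 2.33 and 0.151 ± 0.0532 CPM, and ALPL at 52.3 ± 4.01 and 28.5 ± 2.13 CPM (SD, n = 3). Over all tested genes, 31.7% were called higher and 30.8% lower in TCam-2 than in 2102 EP with DMSO. These are bulk cultures, in which fewer cells with a transcript and less of it per cell cannot be told apart.

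With I-BRD9, 8 of the 9 genes fell in 2102 EP and 1, TFCP2L1, rose. In TCam-2, 7 fell and none rose, and ZFP42 and FOXD3 did not pass the test. The threshold was an adjusted p of 0.05 (edgeR quasi-likelihood test, Benjamini-Hochberg over all genes tested). In 2102 EP 18.6% of all tested genes were called lower and 18.2% higher, and in TCam-2 16.5% were called lower and 15.3% higher. The median log2 fold change was −1.95 over the 9 genes in 2102 EP and −2.04 over 8 in TCam-2, where ZFP42 was left out because it had at most 1 count in either group. Over all tested genes these medians were 0.0025 and 0.0069. In TCam-2 DESeq2 and limma voom also called 0 of the 9 genes higher, as did an unadjusted p under 0.05. Scaling by library totals instead of TMM raised the share of higher genes among all calls from 48.2% to 59% in TCam-2, and each of the 9 genes kept its call and direction in both lines under it.

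**Figure D1:**
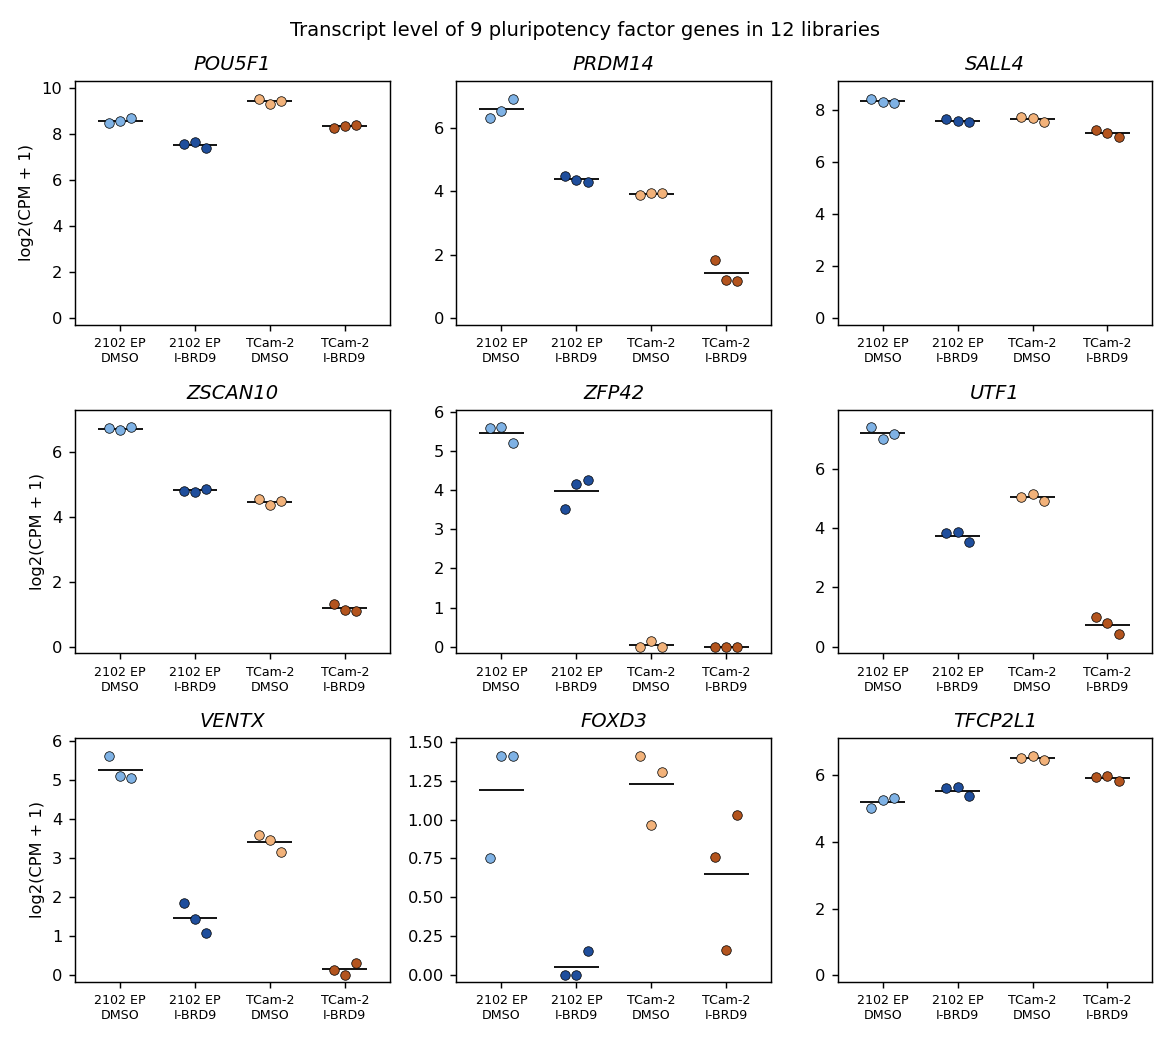
Level of each gene as log2(CPM + 1) in the 12 libraries, with points for replicates, bars for group means and a separate vertical scale in each panel. Every gene but TFCP2L1, FOXD3 and ZFP42 has both I-BRD9 groups below the DMSO group of the same line with no overlap, and TFCP2L1 rises in 2102 EP and falls in TCam-2.

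POU5F1 lies at 31164337 to 31180731 on the minus strand of chromosome 6 (GRCh38). Its level was 363, 384 and 412 CPM in the 2102 EP libraries with DMSO and 191, 200 and 168 CPM in those with I-BRD9. TCam-2 had 749, 643 and 693 CPM with DMSO and 309, 327 and 333 CPM with I-BRD9. All 3 treated libraries were below all 3 DMSO libraries of their line, and TCam-2 with I-BRD9 stood just under 2102 EP with DMSO. The log2 fold change was −1.05 ± 0.085 (SE; adjusted p = 1.76e-09) in 2102 EP and −1.10 ± 0.0841 (adjusted p = 7.57e-10) in TCam-2, which left 48.3% and 46.5% of the DMSO level. The difference between these effects was −0.05 ± 0.12 on the log2 scale (adjusted p = 0.829), and a p that misses the threshold does not show that the lines responded alike.

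The POU5F1 values rest on reads shared with a near-identical copy, POU5F1B, a retrotransposed gene on another chromosome. POU5F1 had fractional counts, more than 0.01 from a whole number, in all 12 libraries, which marks reads split between genes by the estimation. The annotated transcript POU5F1-201 has 1420 bases, of which 1371 aligned to POU5F1B-202 with 28 mismatches, an identity of 98%. Over the last 500 bases, where 3′ libraries take their reads, the identity was 97.9% with a longest identical run of 125 bases. POU5F1B was given more reads than POU5F1 in each library: 1221 ± 28.4 and 536 ± 6.59 CPM (SD, n = 3) in 2102 EP with DMSO and I-BRD9, and 1655 ± 99.5 and 785 ± 34.9 CPM in TCam-2. The 6 POU5F1P pseudogene rows summed to 3.04 counts over all libraries.

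POU5F1 took 24 ± 1.46% (SD, n = 3) of the reads given to both genes in 2102 EP with DMSO and 25.8 ± 1.48% with I-BRD9. In TCam-2 the shares were 29.6 ± 0.675% and 29.2 ± 0.246%. Exact 2-sided permutation tests of these shares gave p = 0.2 for I-BRD9 in 2102 EP and p = 0.4 in TCam-2, and p = 0.1 between the lines with either treatment, the smallest p that 3 against 3 libraries allow (0.2 after adjustment over the 4 tests, and 0.267 and 0.4 for the treatments). The sum of both genes does not depend on the split between them. It was 1607 ± 23 CPM (SD, n = 3) in 2102 EP with DMSO, 722 ± 23 CPM with I-BRD9, 2350 ± 149 CPM in TCam-2 with DMSO and 1108 ± 47.4 CPM with I-BRD9. Its log2 fold change was −1.15 ± 0.0766 in 2102 EP and −1.08 ± 0.0764 in TCam-2, close to that of POU5F1 alone. Between the lines with DMSO the sum was higher in TCam-2 by 0.55 ± 0.0757, against 0.85 ± 0.0837 for POU5F1 alone, so this line difference moved with the treatment of the shared reads.

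**Figure D2:**
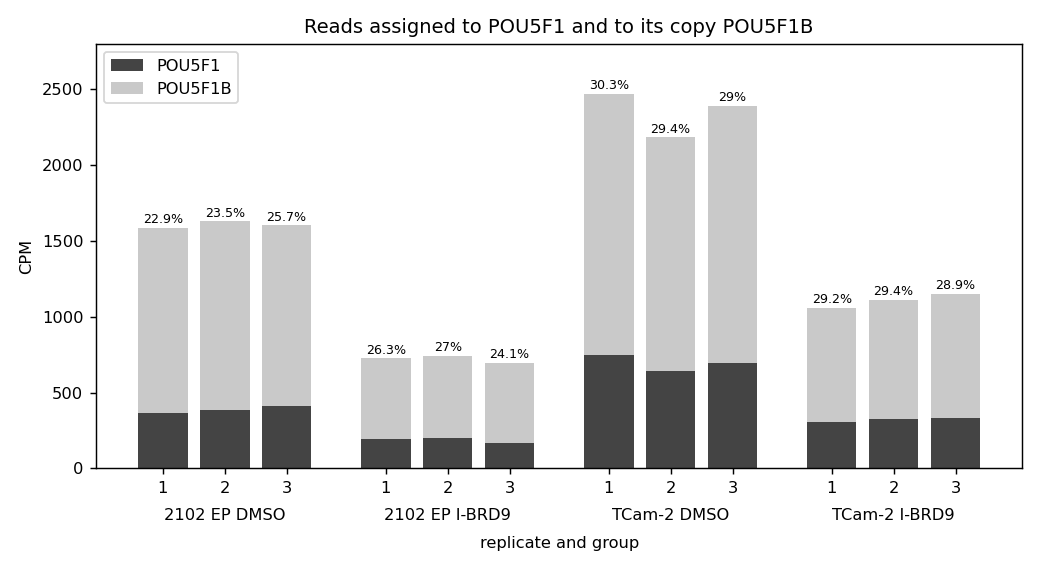
Stacked bars of the CPM given to POU5F1 (dark) and POU5F1B (light) in each library, with the POU5F1 share printed above each bar. The sum falls with I-BRD9 in every library of both lines while the POU5F1 share stays between 22.9% and 30.3%.

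TCF19, a protein-coding gene that overlaps POU5F1 on the opposite strand, rose in 2102 EP by 0.72 ± 0.14 on the log2 scale (adjusted p = 0.000212) and fell in TCam-2 by 0.37 ± 0.13 (adjusted p = 0.0292). Whether the counting used strand is not given in the sources used here, and TCF19 had 12.9 to 30.8 CPM, far below POU5F1. If strand was not used, their reads cannot be told apart where the genes overlap. PSORS1C3 also overlaps POU5F1, on the same strand, where strand could not separate reads, and it did not pass the filter on low counts.

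SALL4 encodes a spalt-family zinc finger protein that binds near OCT4 target genes (20:51782331-51802520, minus strand). It had 349, 321 and 314 CPM in 2102 EP with DMSO and 201, 192 and 187 CPM with I-BRD9. In TCam-2 it had 211, 209 and 188 CPM with DMSO and 152, 140 and 124 CPM with I-BRD9. The treated libraries were lower in both lines without overlap, while 2102 EP with I-BRD9 and TCam-2 with DMSO overlapped. The change was −0.76 ± 0.0822 (adjusted p = 1.68e-07) in 2102 EP and −0.55 ± 0.083 (adjusted p = 2e-05) in TCam-2, the smallest fall among the genes called lower in 2102 EP and in TCam-2. The difference between the lines was 0.21 ± 0.12 (adjusted p = 0.259).

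ZSCAN10 encodes a SCAN-domain zinc finger protein found in pluripotent cells (16:3088890-3099317, minus strand). It was at 106, 101 and 109 CPM in 2102 EP with DMSO and at 27.3, 26.6 and 28 CPM with I-BRD9. TCam-2 stood at 22.7, 19.9 and 21.4 CPM with DMSO and at 1.48, 1.20 and 1.16 CPM with I-BRD9, which is 10 to 15 counts a library. The 4 groups formed 4 levels with no overlap. I-BRD9 left 25.9% of the DMSO level in 2102 EP and 6.13% in TCam-2 (log2 fold changes −1.95 ± 0.098 and −4.03 ± 0.16, adjusted p = 6.59e-13 and 1.19e-14). The fall was larger in TCam-2 by 2.08 ± 0.2 (adjusted p = 1.51e-07 for the difference).

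PRDM14 encodes a PR-domain zinc finger protein needed in mice for germ cell specification that also helps to hold human stem cells in the pluripotent state. Its level was 78.2, 91.8 and 120 CPM in 2102 EP with DMSO and 21.1, 19.4 and 18.5 CPM with I-BRD9. TCam-2 had 13.6, 14.2 and 14.4 CPM with DMSO and 2.57, 1.32 and 1.28 CPM with I-BRD9. The 4 groups did not overlap, with TCam-2 below 2102 EP under either treatment. The change was −2.30 ± 0.15 (adjusted p = 1.12e-10) in 2102 EP and −2.98 ± 0.23 (adjusted p = 1.72e-09) in TCam-2. The difference of −0.69 ± 0.29 missed the threshold (adjusted p = 0.129), and passed it without 2102 EP DMSO replicate 3 (−0.88, adjusted p = 0.0313) or without TCam-2 I-BRD9 replicate 1 (−1.14, adjusted p = 0.0261). These were 2 of 12 fits with 1 library left out, over which the difference ran from −1.14 to −0.52. Over 22 alternatives, other tests included, its adjusted p ran from 0.0261 to 0.348.

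UTF1 and VENTX are neighbours on chromosome 10 and fell furthest of the genes with more than a few counts in 2102 EP. UTF1 (133230274 to 133231558, plus strand) encodes a chromatin-bound protein of undifferentiated embryonic cells, and VENTX (133237404 to 133241929, plus strand) encodes a homeodomain protein, with 5.85 kb between them. UTF1 had 168, 128 and 141 CPM in 2102 EP with DMSO and 13.4, 13.4 and 10.6 CPM with I-BRD9. In TCam-2 it had 32.2, 34.2 and 28.6 CPM with DMSO and 0.989, 0.721 and 0.348 CPM with I-BRD9, or 10, 6 and 3 counts. All 4 groups were apart, and TCam-2 with DMSO stood above 2102 EP with I-BRD9. The change was −3.54 ± 0.14 (adjusted p = 7.48e-15) in 2102 EP and −5.47 ± 0.22 (adjusted p = 1.42e-14) in TCam-2, which left 8.57% and 2.25%, and the fall was larger in TCam-2 by 1.93 ± 0.32 (adjusted p = 0.000153 for the difference).

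VENTX had 48.3, 33.5 and 32.3 CPM in 2102 EP with DMSO and 2.59, 1.70 and 1.12 CPM with I-BRD9. In TCam-2 it had 11.1, 10.1 and 7.96 CPM with DMSO and 1, 0 and 2 counts with I-BRD9. The order of the groups was that of UTF1. The log2 fold change in 2102 EP was −4.42 ± 0.26 (adjusted p = 1.32e-11). In TCam-2 the ratio of DMSO to I-BRD9 was 87.9 (254 against 3 counts over the groups, 95% counting interval 29.7 to 429, which covers counting error only), with adjusted p = 2.69e-10 in the test. The difference between the lines had an adjusted p of 0.086, which became 0.0422 without 2102 EP I-BRD9 replicate 3 and 0.049 without 2102 EP DMSO replicate 1. These were 2 of 12 fits with 1 library left out, over which the difference ran from −2.735 to −1.385. Over 22 alternatives, other tests included, its adjusted p ran from 0.0422 to 0.29. Over the 12 libraries the log2 CPM of UTF1 and VENTX had a Pearson correlation of 0.971, a description that the 4 group levels shared by both genes dominate.

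The genes that flank this pair moved less. KNDC1, 3.86 kb from UTF1 on the other side, changed by −0.97 ± 0.35 in 2102 EP (adjusted p = 0.0348) and by −0.09 ± 0.34 in TCam-2 (adjusted p = 0.875) at 2.1 to 4.18 CPM. ADAM8, 20.5 kb beyond VENTX, had log2 fold changes of 0.26 ± 0.36 and 0.40 ± 0.27 and passed the test in neither line.

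The sequence just before the start site is shown for 4 of the genes, to set UTF1 and ZSCAN10, whose fall was larger in TCam-2, beside ZFP42, which was found in 2102 EP alone, and TFCP2L1, which rose in 2102 EP. The sequences come from the RefSeq promoter table on GRCh38.p14, run from 5′ to 3′ on the gene's strand, cover up to 250 bases before the start, and stop where an exon of GENCODE release 29 begins. Capitals mark matches, on either strand, to the motifs searched. These were the octamer ATTTGCAT, its left 7-base end (ATTTGCA) or right 7-base end (TTTGCAT), the SOX motif written as ACAATG or as ACAAAG, the GC box GGGCGG, the TATA box with the letters TATAAA, the CCAAT box, and the E box read as CACGTG. Matches may overlap.
UTF1 (chr10:133229967-133230216, plus strand): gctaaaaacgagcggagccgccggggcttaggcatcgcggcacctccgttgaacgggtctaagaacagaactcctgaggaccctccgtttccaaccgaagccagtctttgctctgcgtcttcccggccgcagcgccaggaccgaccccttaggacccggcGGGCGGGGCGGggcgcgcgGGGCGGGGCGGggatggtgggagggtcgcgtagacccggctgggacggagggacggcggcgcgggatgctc
ZSCAN10 (chr16:3099318-3099544, minus strand): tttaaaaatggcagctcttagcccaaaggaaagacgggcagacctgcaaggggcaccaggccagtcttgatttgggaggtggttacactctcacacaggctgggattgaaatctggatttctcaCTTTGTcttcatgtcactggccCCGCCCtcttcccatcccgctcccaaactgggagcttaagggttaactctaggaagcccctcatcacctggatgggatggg
ZFP42 (chr4:187995521-187995770, plus strand): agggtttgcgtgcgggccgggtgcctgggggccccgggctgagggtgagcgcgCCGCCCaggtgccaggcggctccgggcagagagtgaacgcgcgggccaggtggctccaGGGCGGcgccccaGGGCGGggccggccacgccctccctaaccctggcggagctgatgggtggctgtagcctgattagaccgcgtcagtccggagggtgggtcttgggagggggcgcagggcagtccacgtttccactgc
TFCP2L1 (chr2:121285208-121285452, minus strand): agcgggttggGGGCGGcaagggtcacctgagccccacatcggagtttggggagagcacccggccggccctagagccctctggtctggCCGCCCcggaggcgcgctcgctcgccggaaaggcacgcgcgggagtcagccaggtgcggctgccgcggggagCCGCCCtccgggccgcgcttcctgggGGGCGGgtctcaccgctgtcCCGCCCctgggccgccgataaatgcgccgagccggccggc

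UTF1 carries 4 GC boxes in 2 overlapping pairs within 90 bases of its start, ZFP42 has 3 and TFCP2L1 has 5. ZSCAN10 has 1 GC box and 1 SOX motif, the latter 126 bases before the start. GC boxes were found in 42.6% and SOX motifs in 21.2% of the 35116 promoters of the table over the same 250 bases, and the octamer in 1.63%. Windows of 6 of the 9 genes were searched: POU5F1 and SALL4 have no entry in the promoter table, and PRDM14 was left out of the search. The octamer was in none of these 6 windows, nor was CCAAT, which 32% of all promoters hold. VENTX has a 7-base octamer end, which 5.89% of promoters hold, 62 bases before its start, with 2 GC boxes, 1 SOX motif and 1 TATA motif (TATAAA, in 10.7% of promoters). All 250 bases of the VENTX window lie within an exon in GENCODE release 29, so these letters are in annotated transcript sequence. FOXD3 has 1 GC box, 1 SOX motif and 1 E box (CACGTG, in 6.34% of promoters). The GC content of the windows was 70.8% for UTF1, 74.4% for ZFP42, 76.8% for TFCP2L1 and 53.2% for ZSCAN10, against a median of 58%. These are descriptions of letters in a short window, and no factor's binding was measured.

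ZFP42, also called REX1, encodes a zinc finger protein that arose from a retrotransposed copy of YY1 and is a classical marker of undifferentiated stem cells (4:187995771-188005050, plus strand). Its level was 46.9, 47.8 and 35.8 CPM in 2102 EP with DMSO and 10.5, 16.9 and 18.2 CPM with I-BRD9, without overlap. The change was −1.51 ± 0.19 (adjusted p = 4.46e-06), which left 35.2%. TCam-2 gave 1 count over the 3 DMSO libraries and 0 over the 3 I-BRD9 libraries, so no fold is given within that line. Between the lines with DMSO the ratio of 2102 EP to TCam-2 was 1140 (1095 against 1 counts, 95% counting interval 204 to 45000), and with I-BRD9 it was at least 140-fold higher in 2102 EP over a floor of 3 counts for the group. TRIML2, the nearest coding gene on 1 side at 86.2 kb, had similar levels in both lines, 85.7 and 69 CPM with DMSO, and fell in both, by 2.42 ± 0.11 and 1.05 ± 0.11 on the log2 scale. FAT1, on the other side at 1270 kb, passed in neither line (−0.41 ± 0.16, adjusted p = 0.0503, and −0.31 ± 0.16, adjusted p = 0.16).

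FOXD3 encodes a forkhead protein of the pluripotent epiblast and of neural crest (1:63323041-63325126, plus strand, a single exon). It was near the limit of detection: 6, 14 and 13 counts in 2102 EP with DMSO and 0, 0 and 1 with I-BRD9, then 14, 9 and 12 counts in TCam-2 with DMSO and 7, 1 and 9 with I-BRD9. The 2102 EP groups did not overlap, while in TCam-2 the highest treated library (1.04 CPM) was above the lowest DMSO library (0.955 CPM). The ratio of DMSO to I-BRD9 in 2102 EP was 34.6 (33 against 1 counts, 95% counting interval 5.8 to 1410; adjusted p = 0.000615 in the test). In TCam-2 the log2 fold change was −1.10 ± 0.62 (adjusted p = 0.191).

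FOXD3 also shares its locus with FOXD3-AS1, an antisense RNA gene, and reads from these genes cannot be told apart without strand. FOXD3-AS1 fell in 2102 EP (−3.36 ± 0.51, adjusted p = 1.75e-05; 4.07 to 0.397 CPM) and did not pass the test in TCam-2 (0.44 ± 0.49, adjusted p = 0.541). The difference between the lines in the effect on FOXD3 missed the threshold (adjusted p = 0.0614). It passed without 2102 EP I-BRD9 replicate 3 (adjusted p = 0.0481) and without TCam-2 I-BRD9 replicate 2 (adjusted p = 0.0302). These were 2 of 12 fits with 1 library left out, over which the difference ran from 3.03 to 5.44. Over 22 alternatives, other tests included, the highest adjusted p was 0.175. The sum of FOXD3 and FOXD3-AS1 also passed (3.35 ± 0.62, adjusted p = 0.000549). FOXD3-AS1 passed by itself (3.80 ± 0.72, adjusted p = 0.000676) and had 103 counts in 2102 EP with DMSO, so the sum does not bear on FOXD3 alone.

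TFCP2L1 encodes a CP2-family protein known from the naive pluripotent state (2:121216587-121285207, minus strand). Its level was 31.8, 37.4 and 39 CPM in 2102 EP with DMSO and 47.9, 48.8 and 40.8 CPM with I-BRD9. TCam-2 had 91, 95.8 and 88.2 CPM with DMSO and 61, 62.4 and 56.1 CPM with I-BRD9. The groups did not overlap, but the lowest treated and highest DMSO libraries of 2102 EP lay close together. It rose in 2102 EP by 0.35 ± 0.1 (adjusted p = 0.0107) and fell in TCam-2 by 0.62 ± 0.0971 on the log2 scale (adjusted p = 3.38e-05), and the effects differed by −0.96 ± 0.14 (adjusted p = 4.3e-05). The rise did not pass without 2102 EP DMSO replicate 1 (0.27, adjusted p = 0.0709). GLI2, the nearest coding gene on 1 side at 224 kb, fell in both lines, by 2.04 ± 0.22 and 0.77 ± 0.19. CLASP1, on the other side and nearer at 52.6 kb, passed in neither line (−0.07 ± 0.13, adjusted p = 0.692, and −0.32 ± 0.13, adjusted p = 0.0646).

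**Figure D3:**
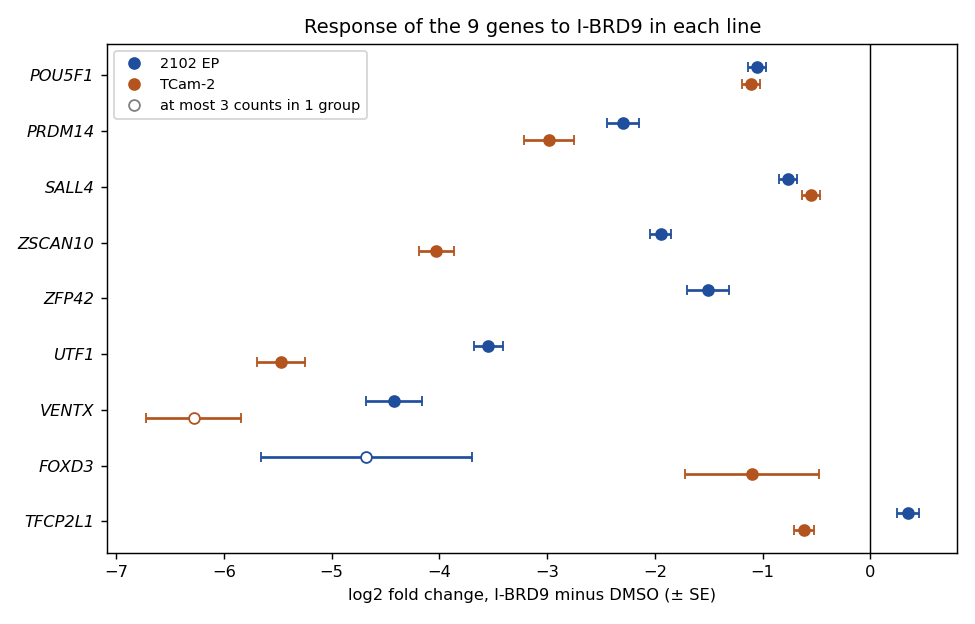
Log2 fold change of each gene, I-BRD9 minus DMSO, in 2102 EP (blue) and TCam-2 (brown), with bars of ± the approximate SE derived from the test's F statistic. Filled points fall left of 0 except TFCP2L1 in 2102 EP; open points had at most 3 counts over one group, so their fitted size depends on the prior count, and ZFP42 in TCam-2 is left out.

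The difference between the 2 responses was tested for each gene. Of the 9, 3 had a lower effect in TCam-2 (ZSCAN10, UTF1 and TFCP2L1) and none a higher one, against 7.19% and 5.9% of all tested genes. At an unadjusted p under 0.05, 1 gene (FOXD3) was higher and 5 were lower, and DESeq2 and limma voom called the same 3 genes lower and 0 higher.

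Without I-BRD9 the lines already differed. With DMSO, POU5F1 (0.85 ± 0.0837, adjusted p = 8.26e-09) and TFCP2L1 (1.35 ± 0.1, adjusted p = 7.94e-11) were higher in TCam-2, and 6 genes were lower, against 31.7% and 30.8% of all tested genes called in these directions. Of the 6, SALL4 differed least (−0.69 ± 0.082) and PRDM14 (−2.78 ± 0.16), ZSCAN10 (−2.30 ± 0.1), UTF1 (−2.20 ± 0.12) and VENTX (−1.97 ± 0.21) by more, beside ZFP42. FOXD3 was at 1.33 ± 0.56 and 1.36 ± 0.361 CPM (SD, n = 3) and did not pass the test.

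With I-BRD9, 3 of the genes were higher in TCam-2 (POU5F1, TFCP2L1 and FOXD3) and 6 lower, against 31.1% of tested genes in each direction. The gap in ZSCAN10 was −4.39 ± 0.16, that in UTF1 −4.12 ± 0.25 and that in PRDM14 −3.47 ± 0.22, while TFCP2L1 was 0.39 ± 0.0998 higher. These comparisons share libraries, so these gaps and the treatment effects are not independent.

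The wider network was described with fixed lists of genes, chosen with earlier results of these data known. Over all tested genes 18.6% were called lower and 18.2% higher in 2102 EP, and 16.5% and 15.3% in TCam-2. These shares stand beside the counts of every list below, those of other cell types included. Of 22 tested partner transcription factors, 15 fell and 5 rose in 2102 EP (median log2 fold change −1.01), and 12 fell and 2 rose in TCam-2 (median −0.89 over the 21 with more than 3 counts in either group). NANOG, a homeodomain factor of the core circuit, went from 175 ± 19.4 to 19.3 ± 1.41 CPM (SD, n = 3) in 2102 EP and from 524 ± 29.8 to 12.8 ± 3.2 CPM in TCam-2. Its counts were fractional, a mark of shared reads, in all 3 libraries of each 2102 EP group and in 2 of TCam-2 with DMSO. SOX2, the partner of OCT4 on DNA, fell by 0.87 ± 0.1 in 2102 EP (468 to 256 CPM) and by 1.51 ± 0.16 in TCam-2 (17.1 to 6.08 CPM). The FGF-responsive factors ETV4 and ETV5 fell in both lines, by 2.32 ± 0.12 and 1.91 ± 0.19 in 2102 EP and by 4.54 ± 0.2 and 4.13 ± 0.22 in TCam-2.

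The 5 partner factors that rose in 2102 EP were SOX3, KLF2, KLF5, TBX3 and NR6A1, and the 2 in TCam-2 were TBX3 and NR6A1. TBX3, a T-box factor, went from 13 ± 1.64 to 75 ± 5.38 CPM (SD, n = 3) in 2102 EP and from 135 ± 8.77 to 261 ± 17.8 CPM in TCam-2. SOX3, a close relative of SOX2, went from 6.65 ± 0.567 to 39.2 ± 4.2 CPM in 2102 EP and fell in TCam-2 from 1.39 ± 0.245 to 0.235 ± 0.116 CPM.

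Among 24 signals and effectors of the pluripotent state, 21 fell and 0 rose in 2102 EP and 16 fell and 0 rose in TCam-2, with medians of −1.82 and −1.45 (−1.21 in TCam-2 with genes at 3 counts or fewer set to that floor). An unadjusted p under 0.05, DESeq2 and limma voom also gave 0 rises in either line. The NODAL-pathway genes LEFTY2 and GDF3 went from 243 ± 23 to 10.1 ± 2.15 CPM and from 420 ± 48.6 to 22.2 ± 7.1 CPM (SD, n = 3) in 2102 EP. In TCam-2 GDF3 went from 4.52 ± 1.38 CPM to 2 counts, and LEFTY2 had at most 3 counts in both groups. FGF4, a growth factor gene bound by OCT4 and SOX2 in stem cells, fell in 2102 EP by 3.40 ± 0.24, and in TCam-2 it had 226 counts with DMSO against 2 with I-BRD9 (ratio 117, 95% counting interval 32.1 to 975). DNMT3L, a cofactor of DNA methylation in germ cells, fell by 3.81 ± 0.2 and 1.73 ± 0.21.

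Genes tied to the naive state and to the primed state of pluripotency were counted in the same way. Of 12 naive-state genes 8 fell and 2 rose in 2102 EP. In TCam-2 5 fell, 2 rose and 5 did not pass, among them DPPA5 and KHDC3L, which had at most 3 counts in both groups and are left out of the median there (medians −1.49 and −0.93). Of 14 primed-state genes 9 fell and 1 rose in 2102 EP and 8 fell and 2 rose in TCam-2 (medians −0.97 and −2.29, the latter without ZIC5 and THBS2, and −2.13 with genes at 3 counts or fewer set to that floor). CD24, a surface protein on the primed list, fell in 2102 EP from 323 ± 3.02 to 59.2 ± 3.77 CPM (SD, n = 3) and rose in TCam-2 from 188 ± 7.07 to 354 ± 7.2 CPM. NLRP7, an oocyte and naive-state gene, fell in both lines by 1.77 ± 0.11 and 2.54 ± 0.12. ALPG, a placental-type alkaline phosphatase on the naive list, fell in 2102 EP by 0.84 ± 0.19 and rose in TCam-2 by 1.88 ± 0.27. THY1, a surface glycoprotein of primed cells, fell by 0.89 ± 0.0953 and 3.65 ± 0.17, and the homeobox gene OTX2 fell in TCam-2 by 2.76 ± 0.24. NEFM, a neurofilament gene on the primed list, rose in both lines by 2.74 ± 0.23 and 0.90 ± 0.2. These lists share members with each other and with the lists above.

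**Figure D4:**
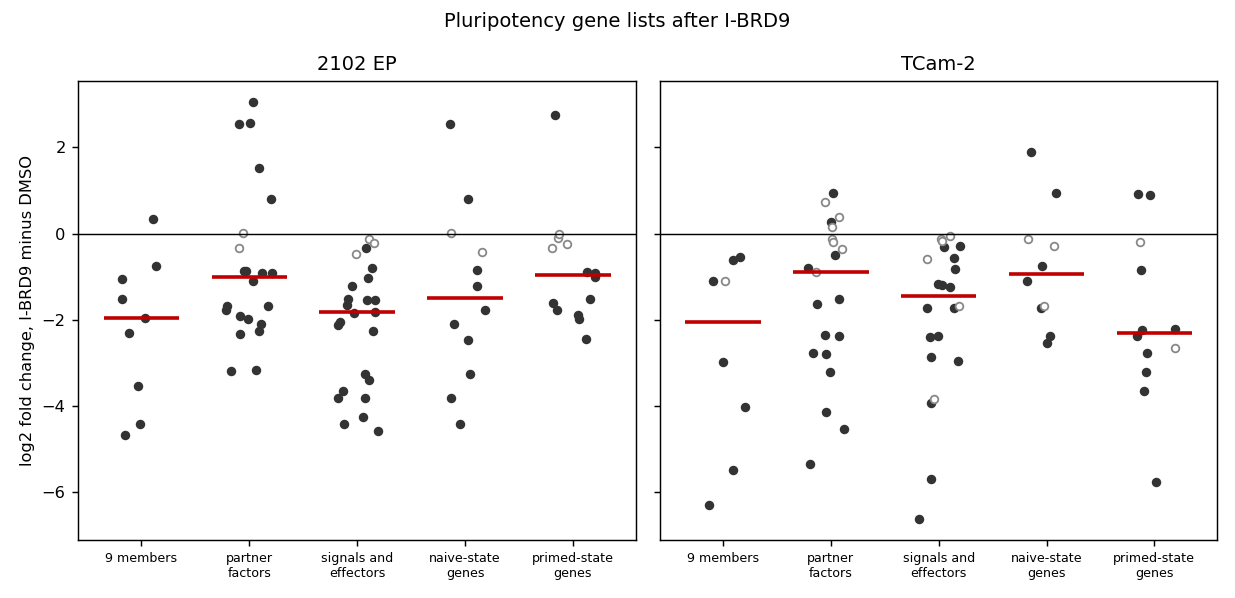
Log2 fold change with I-BRD9 of the 9 genes and of 4 lists in each line; filled points passed the test, open points did not, and red bars are medians over the points shown. Genes with at most 3 counts in both groups are left out, and every median lies below 0.

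Markers of other cell types changed in the same libraries, and their part in the fall of the 9 genes was not tested. Of 5 tested neuroectoderm markers 4 rose in each line (MAP2, NCAM1, TUBB3 and NES in 2102 EP; TUBB3, ZIC1, NCAM1 and NES in TCam-2), and the summed level of the list went from 329–368 to 631–762 CPM in 2102 EP and from 228–249 to 675–710 CPM in TCam-2. TUBB3 had fractional counts, a mark of shared reads, in all 3 libraries of each group. The neural factors SOX1 and NEUROG2 were at 0 in 2102 EP with I-BRD9. Of 7 mesoderm markers 3 rose and 2 fell in 2102 EP (summed 22.9–27.4 to 94.1–107 CPM) and 1 rose and 3 fell in TCam-2 (375–414 to 650–737 CPM), with HAND1 rising in both by 3.79 ± 0.13 and 1.57 ± 0.0906.

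Of 7 trophoblast markers 3 rose and 1 fell in 2102 EP (summed 25.1–28.8 to 54.1–60.7 CPM; CGB3 and ELF5 at 0) and 2 rose and 4 fell in TCam-2 (226–241 to 227–236 CPM; CGB3 at 0). CDX2, a homeobox gene of the trophectoderm, rose in 2102 EP by 5.79 ± 0.36, from 7 to 433 counts over 3 libraries, and fell in TCam-2 by 0.92 ± 0.35. Of 5 endoderm and yolk sac markers 2 rose and 2 fell in 2102 EP (5.38–7.66 to 6.69–8.21 CPM) and 1 rose and 2 fell in TCam-2 (200–211 to 60.2–64.5 CPM, with CER1 and AFP at 0). SOX17, also on the germ cell and seminoma list, made up most of this sum in TCam-2. It was at 193 ± 6.66 CPM there with DMSO and at 45.3 ± 3.13 CPM with I-BRD9 (SD, n = 3). Germ cell and seminoma markers, 10 tested, fell in 4 cases and rose in 1 in 2102 EP (239–321 to 180–185 CPM), and fell in 6 and rose in 1 in TCam-2 (1650–2150 to 1250–1420 CPM; DAZL at 0). TFAP2C made up most of the germ cell and seminoma sum in TCam-2, at 1208 ± 247 CPM with DMSO and 994 ± 108 CPM with I-BRD9. It was not among the genes called there. CXCR4, a chemokine receptor of migrating germ cells, rose in 2102 EP by 1.85 ± 0.26 and fell in TCam-2 by 5.05 ± 0.16, from 129 ± 3.17 to 3.90 ± 0.369 CPM (SD, n = 3). Fibroblast markers had 1 fall among 3 in each line (17.6–23.4 to 23.2–25.2 CPM and 167–179 to 87.7–135 CPM), with DCN, LUM and FAP at 0 in 2102 EP. Of 2 blood and immune markers 1 rose in 2102 EP and 0 changed in TCam-2, and the list summed to at most 4.4 CPM in every library.

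The genes whose levels followed each of the 9 most closely over the 12 libraries were taken by Pearson correlation of log2 CPM, which mainly reflects the 4 group levels. POU5F1 was followed by CEBPZ (0.989), CFLAR (0.988) and NETO2 (0.983), and UTF1 by SPRY4 (0.996), LINC01013 (0.994) and SNRPC (0.992). ZSCAN10 and PRDM14 had a correlation of 0.986 with each other and shared ETV1 and UNG among their 3 closest genes. ZFP42 was followed by ZNF486 (0.998), VENTX by RASL11B (0.985), SALL4 by RFWD3 (0.987), FOXD3 by GABRA5 (0.939) and TFCP2L1 by MERTK (0.987). TFCP2L1 correlated at −0.872 with ZFP42, and POU5F1 at 0.0515 with PRDM14, so the 9 genes did not follow a single pattern over the 12 libraries. These correlations include the difference between the lines, and POU5F1 and PRDM14 both fell with I-BRD9 within each line.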

How the data were processed

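Total RNA was extracted with an RNeasy kit and made into Lexogen QuantSeq 3′ libraries, per the labels' protocols. Salmon 1.9.0 gave the deposited estimated counts of each gene, per the submitters' processing notes, which also name Trim Galore, STAR 2.7.11b, R 4.2.0, DESeq2 and GRCh38. The gene annotation, order of steps and strand setting were not stated there. The counts were rounded to whole numbers and fitted with edgeR 4.0.16 in R 4.3.3: TMM scaling, filterByExpr, and 1 robust quasi-likelihood model of 4 group means over all 12 libraries (8 residual degrees of freedom). The Benjamini-Hochberg adjustment ran over 15614 genes within each comparison. The ± beside a log2 fold change is an approximate SE, the size of the change divided by the square root of the test's F statistic. It is unreliable for genes with few counts: for ZFP42 it was 1.55 within TCam-2 but 0.46 for the difference between the lines. The ± beside a CPM value is the SD of 3 libraries.

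The 9 genes and the gene lists were chosen with earlier results of these data known. Named genes are the 9, rows whose name starts with theirs and which hold over 10 counts, their families, overlapping and nearest coding genes, up to 4 genes per list and line with the largest called change, and the 3 genes most correlated with each; KLF5 and NR6A1, named to complete a count, and SOX2, SOX17, DNMT3B, TFAP2C and PDPN, used to check the lines, were named after their values were seen. Fitted folds against groups of at most 3 counts were replaced by count ratios with exact 95% binomial intervals, which cover counting error only, or by a bound over 3 counts. Positions come from GENCODE release 29 on GRCh38, which holds 58228 of the 63241 gene identifiers (92.1%). Transcripts were aligned with Biopython 1.88. Alternatives were other scalings, no filter, rounding down, DESeq2 1.42.0, limma 3.58.1 (voom), blocks, the 6 libraries compared alone, summed copies and each library left out. The scripts were tested on simulated counts.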

Additional observations from a re-analysis of the deposited data

Results flagged for a closer look

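Among the 9 genes, the response to I-BRD9 differed between TCam-2 and 2102 EP for 3 by edgeR's test of the difference itself (TCam-2 minus 2102 EP, log2 scale). It was −2.08 for ZSCAN10 (adjusted p = 1.51e-07) and −1.93 for UTF1 (adjusted p = 0.000153), which fell in all 3 treated libraries of both lines. It was −0.96 for TFCP2L1 (adjusted p = 4.3e-05), the gene that rose in 1 line and fell in the other. The same test passed for other genes of the lists and families. Among partner factors the difference was −2.17 for NANOG, −0.64 for SOX2, −4.91 for SOX3, −2.22 for ETV4, −2.22 for ETV5 and −1.58 for TBX3. Among signals and effectors it was 2.08 for DNMT3L, 1.23 for DNMT3B and −3.21 for FGF4, whose 2 counts in treated TCam-2 make the fitted size depend on the prior count. Naive-state and primed-state genes gave −0.76 for NLRP7, 2.72 for ALPG, 3.36 for CD24, −1.84 for NEFM, −2.76 for THY1 and −2.43 for OTX2.

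For markers of other cell types the difference was −6.90 for CXCR4, −6.71 for CDX2 and −2.21 for HAND1. For relatives and neighbours of the 9 genes it was 1.58 for FOXD1, −0.61 for SALL2, 3.80 for FOXD3-AS1, 1.36 for TRIML2, 1.28 for GLI2 and −1.09 for TCF19. Adjusted p-values of these genes ran up to 0.041 (SALL2). No group has more than 3 libraries, so single libraries were not screened for outlying values.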

How the results depend on the processing

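Over 22 or 23 alternatives each, the number of the 9 genes called lower stayed at its value or within 1.5 times of it in all 5 comparisons. The number called higher in 2102 EP was 0 to 1 with single libraries left out (0 without 2102 EP DMSO replicate 1, where TFCP2L1 was at 0.27). The number with a higher effect in TCam-2 was 0 to 1 with single libraries left out and 1 with rows of the same name stem summed, in each case the FOXD3 row. That sum adds the antisense FOXD3-AS1, which is not a copy, had more counts than FOXD3 in 2102 EP and passed by itself. POU5F1 summed with POU5F1B gave a difference between the lines of 0.0695 in place of −0.05. The sign of the FOXD3 difference between lines with DMSO changed with library totals (−0.0044) and with the sum (−1.26, adjusted p = 0.00474), and ran from −0.30 to 0.23 with single libraries left out. The ZFP42 difference, fitted on 1 count in TCam-2, was 0.50 with DESeq2, 0.93 with limma voom and −0.82 to 1.5 with single libraries left out, and its fit within TCam-2 ran from −2.32 to 0. The cause of these shifts was not tested.

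The replicate numbers did not pair the libraries across all groups: correlations of deviations between same-numbered libraries ran from −0.119 to 0.16. Only between the TCam-2 groups did each library correlate best with its own number. With the replicate block, 8 genes were called lower and 1 higher in 2102 EP, 7 and 0 in TCam-2, and no call of the 9 genes changed. Rises among the partner factors in TCam-2 ranged from 1 to 3, with 1 where TCam-2 DMSO replicate 1, TCam-2 DMSO replicate 2 or TCam-2 I-BRD9 replicate 2 was left out (chosen after seeing the data). Depth limits FOXD3 in both lines and ZFP42, VENTX and UTF1 in TCam-2 with I-BRD9.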

Other observations

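Relatives of the 9 genes were followed by family. Among the other spalt genes, SALL1 fell in 2102 EP by 1.36 ± 0.2 on the log2 scale (33.6 ± 3.36 to 13 ± 1.63 CPM; SD, n = 3), SALL3 fell there too, and SALL2 fell in TCam-2 by 0.85 ± 0.15 (24.7 ± 3.63 to 13.8 ± 2.11 CPM). Of 7 tested PRDM genes beside PRDM14, PRDM1, a repressor of early germ cells, fell in both lines, by 1.91 ± 0.38 and 2.40 ± 0.24 (32.8 ± 0.458 to 6.21 ± 0.637 CPM in TCam-2). PRDM2 rose in 2102 EP by 0.48 ± 0.11 and PRDM4 rose in TCam-2. FOXD1, the tested relative of FOXD3, fell in 2102 EP by 1.51 ± 0.23 and was at 13.6 ± 1.62 and 14.2 ± 0.282 CPM in TCam-2. Of 5 relatives of TFCP2L1, GRHL1 rose in both lines, by 0.69 ± 0.24 and 0.74 ± 0.16, and GRHL2 in TCam-2 by 0.66 ± 0.17. YY1, from which ZFP42 derives, fell by 0.25 ± 0.0736 in 2102 EP and 0.38 ± 0.0736 in TCam-2. Among the nearest coding genes of the other members, IL32 beside ZSCAN10 fell in 2102 EP and in TCam-2 (by 0.75 ± 0.21), and ALG6 beside FOXD3 rose in both, by 0.37 ± 0.13 and 0.42 ± 0.13. Beside PRDM14, NCOA2 fell in 2102 EP by 1.21 ± 0.21 and SLCO5A1 fell in TCam-2 by 1.59 ± 0.51. Beside SALL4, ZFP64 rose in 2102 EP by 0.95 ± 0.11 and ATP9A rose in TCam-2 by 0.77 ± 0.17. CCHCR1 and HLA-C beside POU5F1, ZNF205 beside ZSCAN10 and ATG4C beside FOXD3 passed in neither line. All changes written here as rises or falls passed edgeR's test at an adjusted p under 0.05.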
